A study of Mus musculus with 12 samples.

Results

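Mex3a-positive cells from mouse colon adenomas were compared by their Lgr5 status: 3 arrays of Mex3a+ Lgr5+ cells against 3 arrays of Mex3a+ Lgr5- cells, chosen by the sample titles and paired by the mouse number in them. These are 6 of the 12 arrays of the study, and 12595 genes were tested. All 3 mice, named MKL347, MKL358 and MKL367, carry the genotype written ki/+ in the labels, and each replicate is 1 mouse, for which cells of several colon adenomas were pooled. The pools held 500 cells in mouse MKL358 and 2000 cells in the others, at either Lgr5 status, so the number of cells was equal within each pair. The labels used here do not name the strain, the age, the adenoma model, any treatment or the way in which Mex3a and Lgr5 status were read. The other 6 arrays, of Mex3a- Lgr5+ and Mex3a- Lgr5- cells of the same mice, set the background for the comparison.

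Lgr5 is a receptor for R-spondins, secreted proteins that strengthen Wnt signalling. It is itself a Wnt target and marks stem cells of the intestinal crypt base. Mex3a is an RNA-binding protein that has been used to mark a part of the Lgr5-positive cells of the gut, among them slowly dividing cells. Many colon adenomas begin with a lesion that keeps the Wnt pathway active, and adenomas retain cells that resemble stem cells next to cells that resemble mature colonocytes and goblet cells. The comparison asks what sets Lgr5-positive cells apart once all cells are Mex3a-positive.

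Few genes were called between Lgr5+ and Lgr5- cells within the Mex3a+ compartment. A gene was called at an adjusted p under 0.05 (limma with the mouse as a block, Benjamini-Hochberg over all genes). By this rule 7 genes rose in Lgr5+ cells, 0.0556% of those tested, and 2 fell, 0.0159%. The rises were Lgr5, Vwa2, Scara3, Thbs2, Col9a3, Pla2g2f and Sidt1, and the falls were Car1 and Steap1. All 9 had the same sign in 3 of 3 mice. At an unadjusted p under 0.05, 808 genes were higher in Lgr5+ cells (6.42%) and 285 lower (2.26%). The median standard error of the log2 difference was 0.102. Over all genes the median log2 difference was 0.025, and 58.5% of genes were higher in Lgr5+ cells. That share was 48.7% after a further quantile normalization, which called 3 genes (1 rise and 2 falls) and put 514 genes higher and 494 lower at an unadjusted p under 0.05. The calls rested on the pairing: without the mouse in the model 0 genes passed (limma; 376 at an unadjusted p under 0.05), and with the 6 Mex3a+ arrays alone and the mouse as a block 100 did. Without mouse MKL347 0 genes passed, without mouse MKL358 1 and without mouse MKL367 4.

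Both transcripts followed the labels. Mex3a read between 6.78 and 7.31 on the 6 Mex3a+ arrays and between 5.93 and 6.57 on the 6 Mex3a- arrays, on the log2 scale of the deposited signals, so the groups did not overlap. Within the Mex3a+ cells its level was 6.89 (MKL347), 6.86 (MKL358) and 7.31 (MKL367) in Lgr5+ cells and 7.03, 6.78 and 6.91 in Lgr5- cells, which overlap. The difference of 0.11 (SE 0.14, limma adjusted p = 0.864, 95% interval -0.18 to 0.41) had no common sign across mice. The dimmer probe set of Mex3a had the other sign, with a difference of -0.25 that was below 0 in each mouse (limma unadjusted p = 0.041, adjusted p = 0.585 over all probe sets). The epithelial marker Epcam, a cell adhesion molecule, read 11.44 to 11.65 on the 6 arrays and the keratin Krt8 11.11 to 11.45. Markers of other cells were mixed. Under 4.40, the level that the filter on dim genes asks for, on all 6 arrays lay 12 of 26 fibroblast and smooth muscle markers, 5 of 24 endothelial, 10 of 27 myeloid, 7 of 21 neutrophil, 9 of 20 lymphocyte and 4 of 17 glial and neuronal ones. Among these were Pdgfra of fibroblasts (3.55 to 3.74), Kdr of endothelium (3.90 to 4.27), Ptprc of leukocytes (2.91 to 3.19) and Cd3e of T cells (3.58 to 3.83). Others were well above it: the smooth muscle actin gene Acta2 (6.80 to 8.06), the endothelial genes Flt1 (6.65 to 8.04) and Ecscr (8.89 to 9.40), Cd74 of antigen-presenting cells (7.43 to 9.11) and the lysozyme gene Lyz2 (11.62 to 11.87). Whether the latter signals come from other cells in the pools was not tested.

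Lgr5, whose status defines the comparison, checks the labels. It read 8.53 (MKL347), 8.10 (MKL358) and 8.50 (MKL367) in Lgr5+ cells and 7.33, 7.03 and 7.49 in Lgr5- cells, so every Lgr5+ array lay above every Lgr5- array. The log2 difference was 1.09 (SE 0.15, 2.13-fold, limma adjusted p = 0.0289), and the dimmer probe set gave 1.10 (limma adjusted p = 0.0081 over all probe sets). The Lgr5 transcript of Mex3a+ Lgr5- cells was thus not at the level of Mex3a- Lgr5- cells, which read 5.78, 5.76 and 6.49. It lay between these and the Mex3a- Lgr5+ cells at 8.06, 8.05 and 7.95.

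After Lgr5, the 2 largest called rises among genes above the filter level in both groups were genes of secreted matrix proteins. Vwa2, a protein with von Willebrand factor A domains found in basement membranes, read 8.51, 8.49 and 8.82 in Lgr5+ cells of mice MKL347, MKL358 and MKL367 and 7.16, 7.71 and 7.98 in their Lgr5- cells. The groups did not overlap, and the log2 difference was 0.99 (SE 0.14, 1.99-fold, limma adjusted p = 0.0289). Thbs2, a thrombospondin that binds other matrix proteins and cell receptors, read 7.62, 8.17 and 7.69 against 6.82, 7.55 and 6.69. Its groups also lay apart, by a narrow margin, with a difference of 0.81 (SE 0.11, 1.75-fold, limma adjusted p = 0.0289). The dimmer probe set of Thbs2 had a difference of 0.45 that did not pass (limma adjusted p = 0.452 over all probe sets).

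Vwa2, Thbs2 and Sidt1 rose with Lgr5 status in Mex3a+ and in Mex3a- cells and have a promoter window. The windows of Vwa2 and Thbs2, the matrix genes described above, are shown. They are RefSeq sequence (GRCm38.p6), from 250 bases before to 50 bases after the gene start, 5′ to 3′ on the strand of the gene: Vwa2 at chr19:56874166-56874465 on the plus strand and Thbs2 at chr17:14694213-14694512 on the minus strand. Capitals would mark TCAAAG on either strand, the core of the site of the Tcf/Lef factors that act at the end of the Wnt pathway, and neither window holds it.
Vwa2: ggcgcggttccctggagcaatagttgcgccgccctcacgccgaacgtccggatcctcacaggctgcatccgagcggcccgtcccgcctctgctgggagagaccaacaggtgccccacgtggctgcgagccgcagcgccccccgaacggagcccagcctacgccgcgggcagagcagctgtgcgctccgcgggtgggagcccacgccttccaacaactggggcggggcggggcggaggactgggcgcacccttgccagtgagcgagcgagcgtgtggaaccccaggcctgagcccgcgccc
Thbs2: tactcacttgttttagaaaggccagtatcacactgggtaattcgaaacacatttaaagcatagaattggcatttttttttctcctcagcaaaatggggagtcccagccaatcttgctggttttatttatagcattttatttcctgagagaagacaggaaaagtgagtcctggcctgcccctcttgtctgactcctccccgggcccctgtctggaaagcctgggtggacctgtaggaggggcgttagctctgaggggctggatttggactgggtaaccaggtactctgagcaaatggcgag
The windows differ in base composition, with 73.3% G and C for Vwa2 and 48.3% for Thbs2. Of the 9 called genes, 5 have a window in the table (Pla2g2f, Sidt1, Steap1, Thbs2 and Vwa2), and 0 of these 5 hold the motif. It is found in 14.7% of the 10123 tested genes with a window and in 16.0% of all 32851 windows.

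The other rises were of diverse kinds. Scara3, a scavenger receptor-like protein, read 5.38, 5.02 and 4.71 in Lgr5+ cells of mice MKL347, MKL358 and MKL367 and 4.10, 4.12 and 4.24 in Lgr5- cells. All 3 Lgr5- values lay under the filter level of 4.40, so the difference of 0.88 (SE 0.14, 1.85-fold, limma adjusted p = 0.0432) is between dim signals. Scara3 passed the filter through Lgr5+ arrays only, the side on which it was higher, so its entry into the test was not independent of its call. A stricter filter left it untested. Col9a3, a chain of collagen IX, read 9.09, 8.10 and 9.13 against 8.26, 7.48 and 8.60. Its groups overlapped, since mouse MKL358 was low in both, and only the paired difference of 0.66 (SE 0.10, 1.58-fold, limma adjusted p = 0.0289) set them apart.

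Pla2g2f, a secreted phospholipase A2, read 8.98, 9.20 and 8.89 against 8.42, 8.65 and 8.33. The groups did not overlap, and the differences of the mice (0.56, 0.55 and 0.56) were the closest to each other of the 9 genes. The mean was 0.56 (SE 0.08, 1.47-fold, limma adjusted p = 0.0289). Sidt1, a membrane protein of a family linked to RNA transport, read 9.63, 9.35 and 9.74 against 9.21, 8.83 and 9.31. It rose by 0.46 (SE 0.07, 1.37-fold, limma adjusted p = 0.0289), and its groups lay apart by a narrow margin. The dimmer probe sets of Col9a3 (0.78, limma adjusted p = 0.338) and Pla2g2f (0.39, limma adjusted p = 0.322) did not pass.

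Car1 showed the largest difference of any called gene. Car1, a cytosolic carbonic anhydrase abundant in mature colonocytes, read 5.41, 6.20 and 5.56 in Lgr5+ cells of mice MKL347, MKL358 and MKL367 and 8.23, 7.26 and 7.58 in Lgr5- cells. The groups did not overlap. Its difference ranged from -2.82 in mouse MKL347 to -1.06 in mouse MKL358 and averaged -1.97 (SE 0.22, 3.91-fold lower, limma adjusted p = 0.0167). Both Mex3a+ groups were below the Mex3a- cells, in which Car1 read 9.30 to 10.3. Steap1, a metalloreductase-like membrane protein, read 7.07, 7.10 and 7.19 against 7.80, 7.70 and 7.87. It fell by 0.67 on the log2 scale (SE 0.10, 1.59-fold, limma adjusted p = 0.0289), with groups that lay apart. A much dimmer probe set of Steap1, at means of 4.04 and 4.29, had a difference of -0.25 that did not pass (limma adjusted p = 0.742 over all probe sets).

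**Figure D1:**
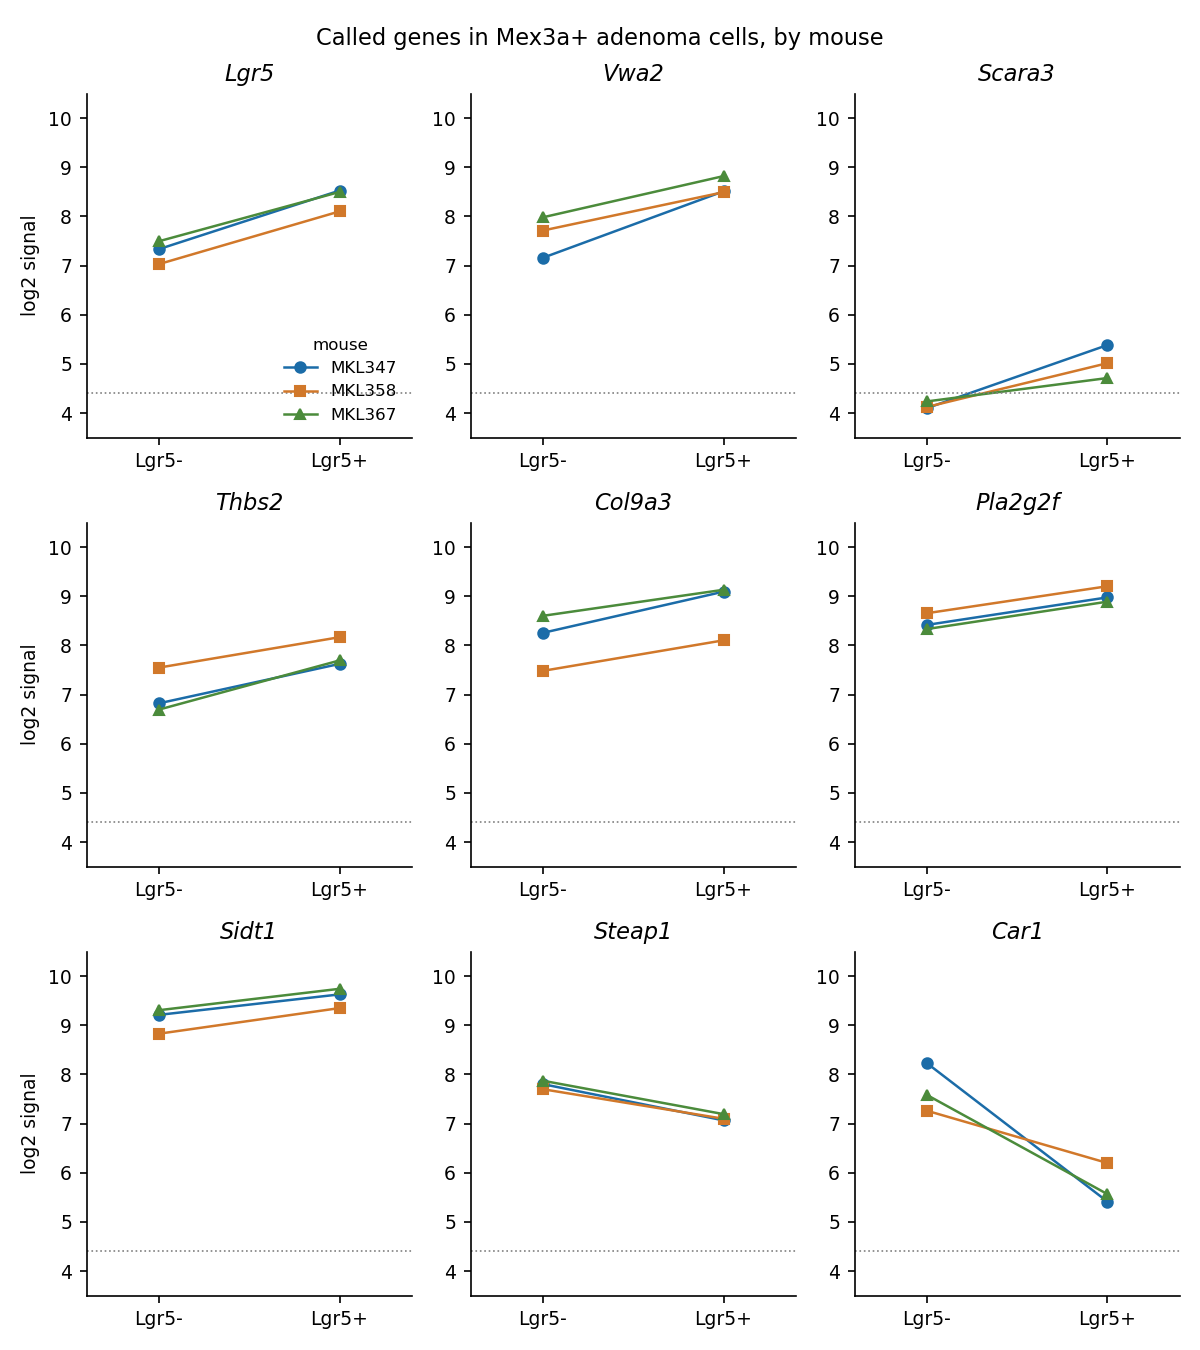
Log2 signal (y axis) of the 9 called genes in Lgr5- and Lgr5+ cells (x axis) of the Mex3a+ compartment, with 1 line and marker shape per mouse and a dotted line at the filter level of 4.40. Every line of a gene slopes the same way, Scara3 starts under the dotted line, and Col9a3 is the gene whose groups overlap.

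Most of these calls did not hold when a mouse was left out. Car1 stayed called without mouse MKL358 (limma adjusted p = 0.00475) but not without mouse MKL347 (0.186) or MKL367 (0.095), and Lgr5 only without mouse MKL367 (limma adjusted p = 0.0382). The other 7 genes lost their call without any 1 of the mice, at limma adjusted p-values of 0.0537 to 0.381, while the sign of each stayed. With the mouse as a random effect Car1, Lgr5, Vwa2, Scara3, Pla2g2f and Steap1 passed, and Thbs2 (limma adjusted p = 0.243), Sidt1 (0.363) and Col9a3 (0.61) did not.

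The genes next in line in either direction did not pass. On the higher side these were Alcam, an adhesion molecule of the immunoglobulin family (0.66, SE 0.11), Slc43a2, an amino acid transporter (0.50, SE 0.08), and Smoc2, a matricellular protein of crypt base stem cells (0.70, SE 0.11), each at a limma adjusted p of 0.0507. Each of the 3 genes had Lgr5+ arrays that all lay above the Lgr5- arrays, as did 665 genes in all (5.28%), and 301 genes lay wholly below (2.39%). Smoc2 read 9.67, 9.20 and 9.11 against 8.97, 8.44 and 8.46 in mice MKL347, MKL358 and MKL367.

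On the lower side followed Cdkl4, a protein kinase (-0.80, SE 0.14, limma adjusted p = 0.0967), Ehd3, which acts in endosomal transport (-0.41), and Cdkn1a, the cyclin-dependent kinase inhibitor p21 (-0.36, SE 0.08, limma adjusted p = 0.213). After these came Rnf183, a ubiquitin ligase (-0.46), Irx4, a homeobox factor (-0.71), Car2, another carbonic anhydrase (-0.54, SE 0.12), Tns4, a tensin (-0.44), and Ggn, a gene known from male germ cells (-0.40). Their limma adjusted p-values were 0.193 to 0.258. Cdkn1a read 9.57, 10.14 and 9.55 against 10.01, 10.47 and 9.84. Its groups overlap through mouse MKL358, which was high in both groups, while the value in Lgr5+ cells was lower in each mouse.

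**Figure D2:**
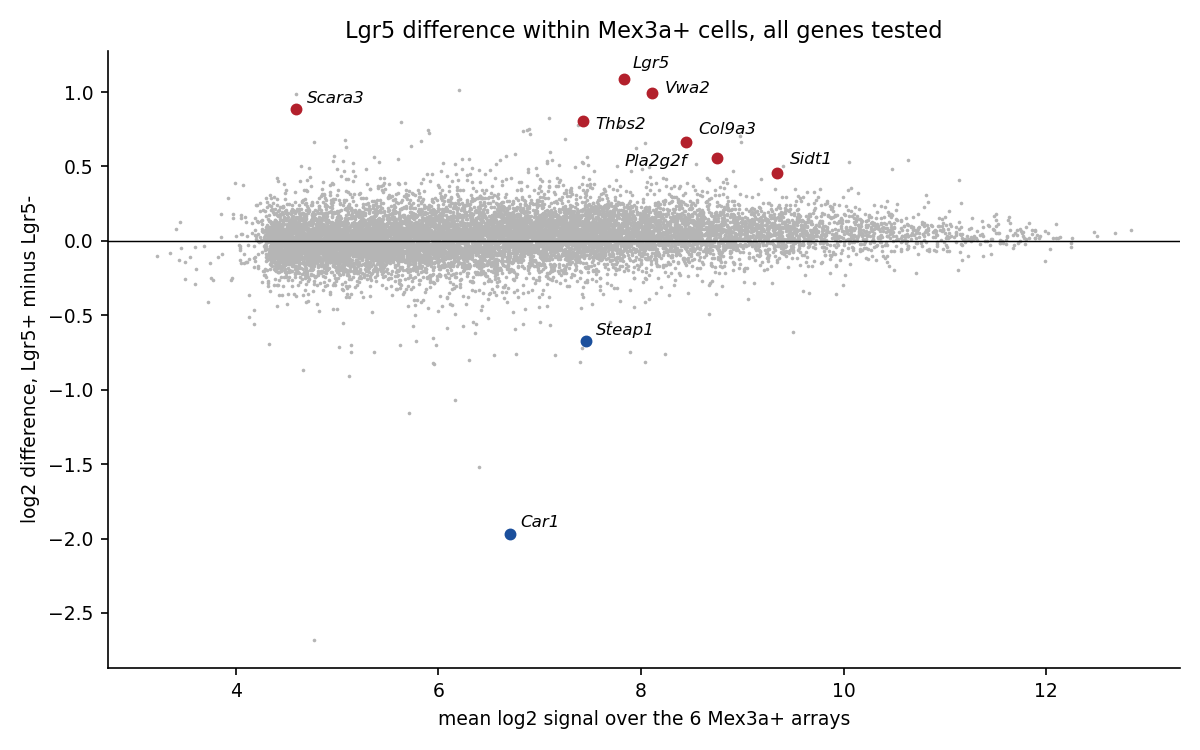
Log2 difference between Lgr5+ and Lgr5- cells (y axis) against the mean log2 signal over the 6 Mex3a+ arrays (x axis) for the 12595 genes tested, 1 point per gene, with the 7 called rises in red and the 2 called falls in blue. Grey points farther from 0 than some called genes did not pass the test, Smoc2 at 0.70 among them.

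Genes of crypt base stem cells were mostly higher in Lgr5+ cells, by small amounts. Of the 33 measured, Lgr5 rose, 0 fell and 32 did not pass. At an unadjusted p under 0.05, 11 were higher (33.3%, Lgr5 among them) and 0 lower, against 6.42% and 2.26% of all genes. In all 3 mice 20 were higher and 1 lower, against 2778 and 1428 of all 12595 genes. The median difference was 0.13, against 0.025 over all genes, with 0.05 in mouse MKL347, 0.16 in mouse MKL358 and 0.26 in mouse MKL367. After Lgr5 and Smoc2 the smallest p belonged to Rgmb, a co-receptor of bone morphogenetic proteins (0.58, SE 0.13, limma adjusted p = 0.233), and Hopx, an atypical homeobox protein (0.25, SE 0.06, limma adjusted p = 0.258). The dimmer probe set of Hopx had -0.059, with no common sign across mice. Rgmb read 7.00, 6.87 and 7.26 against 6.69, 6.27 and 6.42, with groups apart. After a further quantile normalization the median was 0.078 and 7 members were higher at an unadjusted p under 0.05, as were 7 without mouse MKL367.

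Wnt targets and feedback genes, 9 of which are also on the stem cell list, had a median of 0.14. Of 34 measured, Lgr5 rose, 0 fell and 33 did not pass, with 4 higher (11.8%, Lgr5 among them, against 6.42% of all genes) and 0 lower at an unadjusted p under 0.05. After a further quantile normalization 2 were higher and 2 lower. Axin2, a scaffold that limits Wnt signalling and is induced by it, read 9.73, 9.84 and 10.02 in Lgr5+ cells of mice MKL347, MKL358 and MKL367 and 9.55, 9.56 and 9.67 in Lgr5- cells. These groups lay apart, but the difference of 0.27 (SE 0.07) did not pass (limma adjusted p = 0.258), and its dimmer probe set had 0.11 with no common sign across mice. Sox9, a transcription factor of crypt cells, had 0.18 and the Wnt ligand gene Wnt6 0.30.

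Wnt receptors and ligands showed no call among 27 measured, and a median of 0.061. At an unadjusted p under 0.05, 4 were higher (14.8%, against 6.42% of all genes) and 1 lower, but this balance did not hold: 0 were higher and 2 lower without mouse MKL358, and 1 each way without mouse MKL347 or after a further quantile normalization. The paralogs of Lgr5 differed in sign: Lgr6 had -0.47 (SE 0.13, limma adjusted p = 0.327) and Lgr4 0.24 (SE 0.10, limma adjusted p = 0.517). Lgr6 read 5.41, 6.18 and 5.69 in Lgr5+ cells and 6.02, 6.71 and 5.98 in Lgr5- cells of mice MKL347, MKL358 and MKL367, lower in every mouse but with overlapping groups. The other members with the smallest p were the ligand gene Wnt3 (0.32) and the receptor gene Ryk (0.14).

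Among the other signalling lists 0 genes were called. The 21 Notch pathway genes had a median of 0.12 with 18 above 0 (85.7%, against 58.5% of all genes). They were led by Dtx4, a ubiquitin ligase of the pathway (0.27), and Rfng, a glycosyltransferase that modifies Notch (0.25, and -0.039 by its dimmer probe set). Hey1, another member, had -0.34 and was lower in each mouse. Among the 21 genes 2 were higher (9.52%, against 6.42% of all genes) and 0 lower at an unadjusted p under 0.05. The 37 BMP and TGF-beta genes had a median of 0.023, with the latent TGF-beta binding proteins Ltbp4 (0.56) and Ltbp1 (0.74) higher and the decoy receptor Bambi (-0.36) lower in each mouse, none passing. In the EGF family 12 of 18 genes were below 0 and 33.3% above it, against 58.5% of all genes, and the median was -0.077. Yet 4 were higher (22.2%, against 6.42% of all genes) and 1 lower (5.56%, against 2.26%) at an unadjusted p under 0.05. These became 3 and 3 after a further quantile normalization. The lead of the EGF family was Btc, the EGF receptor ligand betacellulin (0.52, SE 0.10, limma adjusted p = 0.161), which read 7.66, 7.17 and 7.18 against 6.94, 6.72 and 6.77, with groups apart. Its dimmer probe set had 0.11, with no common sign across mice. Lrig1, a brake on these receptors and a marker of stem cells, had 0.47 and Errfi1, another inhibitor of the receptors, 0.34. The 14 Eph receptors and ephrins had a median of 0.047.

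Colonocyte genes showed the opposite sign. Of 34 measured, Car1 fell, 0 rose and 33 did not pass, while 29 were below 0 and 14.7% above it, against 58.5% of all genes. At an unadjusted p under 0.05, 10 were lower and 0 higher, against 2.26% and 6.42% of all genes. The median was -0.24. Mouse MKL347 had the largest shift, at a median of -0.49, against -0.18 in mouse MKL358 and -0.10 in mouse MKL367. Without mouse MKL347 the median was -0.097 and 5 genes were lower at an unadjusted p under 0.05. Car2 read 7.75, 7.50 and 7.00 in Lgr5+ cells of mice MKL347, MKL358 and MKL367 and 8.33, 7.98 and 7.57 in Lgr5- cells. Its groups overlap, yet the 3 differences were alike (-0.58, -0.48 and -0.57). Mal, a protein of apical transport, had -0.75 (SE 0.21), Cdhr5, a protocadherin of the brush border, -0.30 and Slc9a3, a sodium and proton exchanger, -0.36, none of which passed (limma adjusted p = 0.342 to 0.407).

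Secretory and other mature lists held 0 called genes. Of 32 goblet cell genes measured, 5 were higher (15.6%, against 6.42% of all genes) and 1 lower (3.12%, against 2.26%) at an unadjusted p under 0.05. Their median of 0.11 had a sign that was not common to the mice: -0.17 in mouse MKL347, 0.34 in mouse MKL358 and 0.11 in mouse MKL367. Without mouse MKL358 it was 0.0013. Capn8, a calpain of mucous cells, had 0.41, Retnlb, a secreted antibacterial protein, 0.75 and the potassium channel gene Kcnk6 -0.49. Deep crypt secretory cell genes (13) had a median of 0.097, enteroendocrine genes (17) of 0.0034 and tuft cell genes (13) of -0.033. General epithelial genes (25) had a median of 0.053 (0.0015 after a further quantile normalization and -0.012 without mouse MKL367), with the liver-intestine cadherin Cdh17 at -0.27 and the splicing factor Esrp2 at 0.26. Genes of fetal and injured epithelium (20) had a median of 0.11, with 5 higher (25%, against 6.42% of all genes) and 0 lower at an unadjusted p under 0.05. Without mouse MKL367, 2 were higher and 1 lower. The clusterin gene Clu, a marker of such cells, led them (0.53, SE 0.13, limma adjusted p = 0.268). As these are bulk samples, fewer cells of a type and less RNA of it per cell cannot be told apart.

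Most genes of the G2 and M phases were slightly lower in Lgr5+ cells, while those of DNA replication had values on either side of 0. Of 38 genes of G2 and M 0 passed and 35 were below 0, with 7.89% above 0 against 58.5% of all genes. In all 3 mice 21 were lower, against 1428 of all 12595 genes. At an unadjusted p under 0.05, 7 were lower (18.4%, against 2.26% of all genes) and 0 higher. There were 4 lower without mouse MKL358 or mouse MKL367, and 12 after a further quantile normalization, under which 494 of all genes were lower. The median was -0.13, from -0.19 in mouse MKL358 to -0.11 in mouse MKL347. Cdk1, the kinase that drives entry into mitosis, read 8.43, 8.47 and 8.79 in Lgr5+ cells of mice MKL347, MKL358 and MKL367 and 8.91, 8.65 and 8.95 in Lgr5- cells. The groups overlap, and the difference was -0.27 (SE 0.08, limma adjusted p = 0.335). The centromere protein gene Cenpf had -0.40, the spindle checkpoint kinase gene Bub1b -0.26 and Cks2, a partner of Cdk1, -0.18 (0.051 by its dimmer probe set, with no common sign). Dimmer probe sets had -0.235 for Cenpf, and -0.14 and -0.013 for Bub1b, the last with no common sign. The 41 genes of DNA replication had a median of -0.0013 and 0 at an unadjusted p under 0.05, and the 35 genes of ribosome biogenesis had 0 at that level. After a further quantile normalization 2 of each were lower. The 37 of the respiratory chain had a median of 0.020 and 4 higher (10.8%, against 6.42% of all genes). These became 0 higher without mouse MKL347, and 1 higher with a median of -0.027 after a further quantile normalization.

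Of 36 matrix genes measured, Vwa2 and Thbs2 rose, 0 fell and 34 did not pass. At an unadjusted p under 0.05, 8 were higher (22.2%, against 6.42% of all genes) and 2 lower (5.56%, against 2.26%), and 27 were above 0 (75.0%, against 58.5% of all genes). The median was 0.084. Prelp, a small leucine-rich proteoglycan, read 8.90, 8.05 and 8.17 in Lgr5+ cells of mice MKL347, MKL358 and MKL367 and 8.38, 7.12 and 7.65 in Lgr5- cells. It was higher in every mouse with overlapping groups (0.66, SE 0.11, limma adjusted p = 0.0724). Smoc2, given above, is on this list too.

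Among markers of fibroblasts and smooth muscle 0 genes were called. Of 26 on the array 14 were measured, and 12 of the 26 lay under the filter level on all 6 arrays, Col1a2 (3.64 to 3.80), Lum (3.33 to 3.72) and Pdgfra among them. Others lay above it on all 6, such as Col1a1 (6.23 to 6.74), Col6a2 (5.71 to 5.85), Pdgfrb (5.26 to 5.46) and Acta2 (6.80 to 8.06). Which cells the matrix signals come from was not tested. The mean over the 26 was 4.55 to 4.63 in Lgr5+ cells and 4.60 to 4.69 in Lgr5- cells. The median difference of the 14 was -0.022, with 11 below 0 and 3 above it, Pdgfrb (0.11) among the latter. There were 0 higher and 1 lower (7.14%, against 2.26% of all genes) at an unadjusted p under 0.05. The latter was Mylk, the myosin light chain kinase, which read 6.86, 6.39 and 7.72 against 7.65, 7.53 and 8.24 (-0.81, SE 0.20, limma adjusted p = 0.264). Its dimmer probe sets had -0.20 and -0.10.

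**Figure D3:**
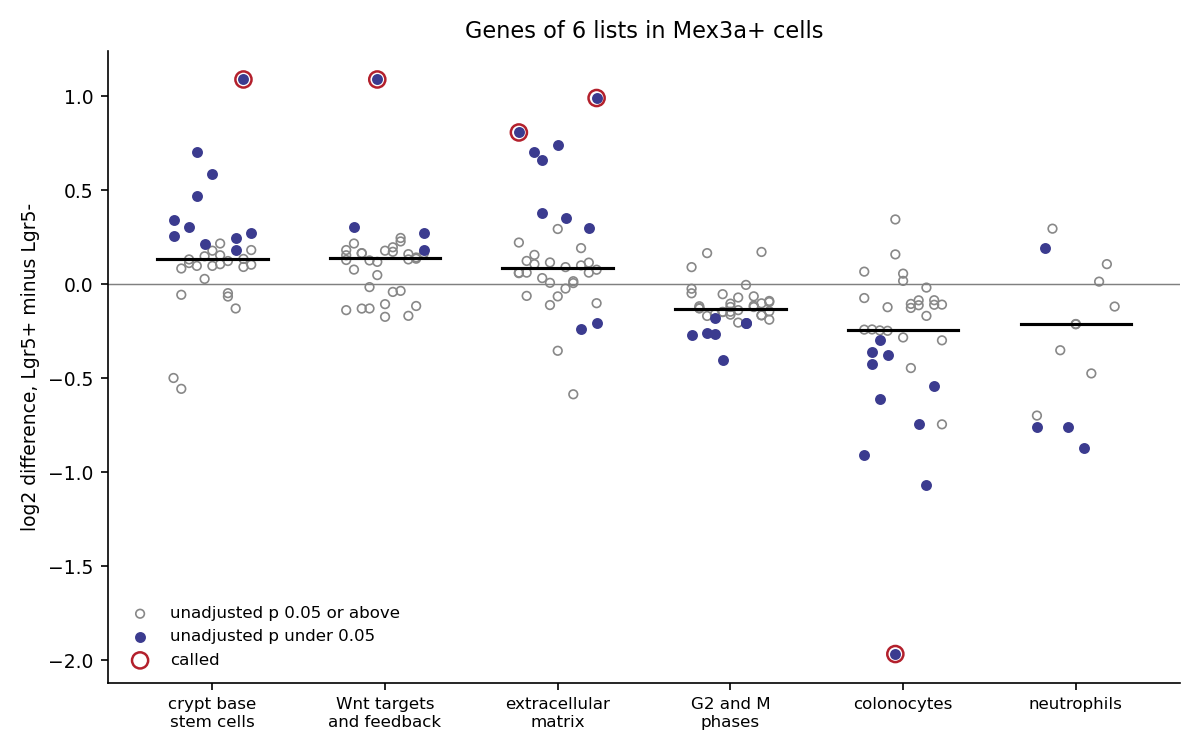
Log2 difference between Lgr5+ and Lgr5- cells of the Mex3a+ compartment (y axis) for each measured gene of 6 lists (x axis), with filled points at an unadjusted p under 0.05, red rings for called genes and a bar at the list's median. The 11 filled stem cell genes lie above 0 and the 10 filled colonocyte genes below it, while the 7 filled genes of G2 and M lie between -0.40 and -0.18.

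Of the marker lists of other cells, that of neutrophils had the lowest median, -0.21 (-0.13 without mouse MKL358 and -0.39 without mouse MKL367). Of 13 measured neutrophil genes 0 passed. Among them 3 were lower (23.1%, against 2.26% of all genes) and 1 higher (7.69%, against 6.42%) at an unadjusted p under 0.05. The mean over the 21 on the array was 4.94 to 5.14 in Lgr5+ and 5.06 to 5.41 in Lgr5- cells, and 7 of them lay under the filter level on all 6 arrays. S100a8 and S100a9, which form calprotectin, were lower in each mouse. S100a9 read 5.95, 7.18 and 6.04 in Lgr5+ cells of mice MKL347, MKL358 and MKL367 and 6.91, 7.89 and 6.65 in Lgr5- cells (-0.76, SE 0.26, limma adjusted p = 0.457). The groups overlap, with both arrays of mouse MKL358 high. S100a8 (-0.87) was dimmer, at means of 4.23 and 5.10, and the chemokine gene Cxcl2 had -0.76. Of the 13 genes 9 were below 0 and 4 above it. The 4 were Mpo (0.19, higher in each mouse), Ltf (means of 6.64 in Lgr5+ and 6.35 in Lgr5- cells), Hdc (5.58 and 5.47) and Lcn2 (10.55 and 10.53). Csf3r, a receptor of neutrophils, read 4.78 to 4.96 on the 6 arrays. The part of such cells in the lower colonocyte and G2 and M values was not tested.

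The median differences of the other marker lists were -0.092 for myeloid cells (17 genes), -0.027 for endothelium (20), 0.00026 for lymphocytes (11) and 0.0046 for enteric glia and neurons (12), with 0 called. Of glial and neuronal genes 2 were higher (16.7%, against 6.42% of all genes) and 0 lower at an unadjusted p under 0.05. These were Tubb3 (0.48) and Uchl1 (0.53). Endothelial genes had 1 higher (5%, against 6.42%), Pecam1 (0.28), and 2 lower (10%, against 2.26%), Sox17 (-0.69) and Vwf (-0.25). Myeloid and lymphocyte genes had 0 either way. Interferon-induced genes (30) had a median of 0.035, which was -0.021 after a further quantile normalization. Higher at an unadjusted p under 0.05 was 1 of them (3.33%, against 6.42% of all genes). Immediate early genes (27), known to respond to the handling of cells, had a median of 0.053. Among them 4 were higher (14.8%, against 6.42% of all genes) and 1 lower (3.7%, against 2.26%) at an unadjusted p under 0.05. These became 2 and 2 after a further quantile normalization. The phosphatase gene Dusp1 had 0.31 and the transcription factor gene Jun 0.33, higher in each mouse. The dimmer probe set of Jun had 0.20, with no common sign across mice.

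**Figure D4:**
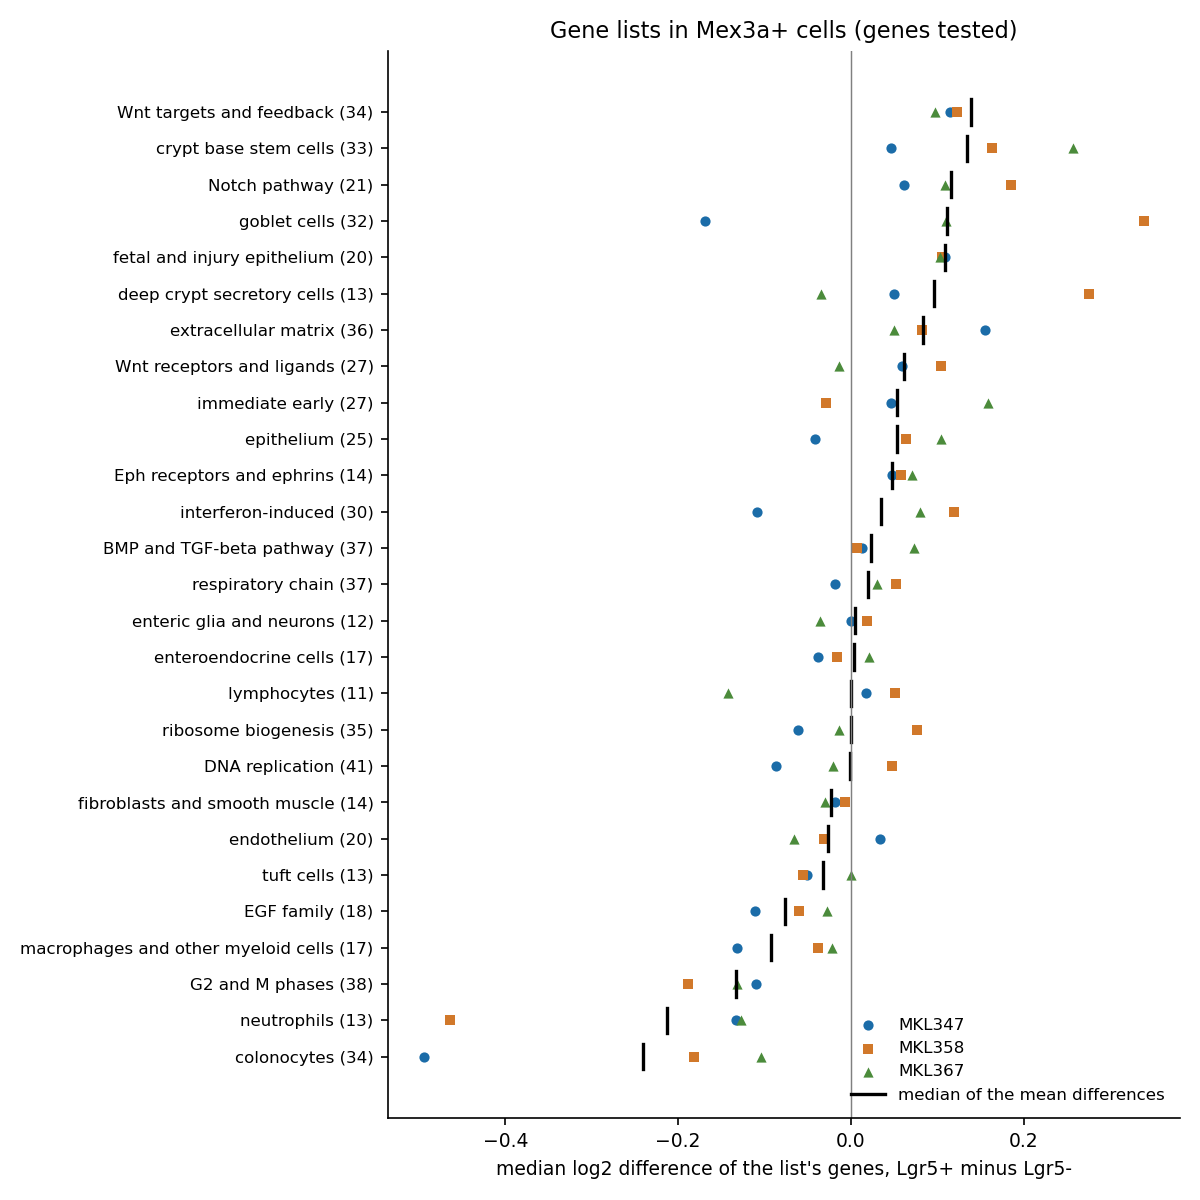
Median log2 difference of the genes of each list (x axis) in each mouse (marker shape and colour) and over the mice (bar), for the 27 lists in order of that median, with the number of genes tested in brackets. The stem cell list is above 0 and the colonocyte and G2 and M lists are below 0 in every mouse, and the goblet cell list is not on 1 side.

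Lgr5 status gave more calls in Mex3a- than in Mex3a+ cells. In Mex3a- cells 102 genes rose in Lgr5+ cells (0.81%) and 102 fell (0.81%), in the same model, which shares its estimate of the spread and of the mice, and with none of the compared arrays in common. Of the 102 rises, 98 were above 0 in Mex3a+ cells, against 58.5% of all genes. In all 3 mice 76 of them were higher there, against 2778 of all 12595 genes. Groups lay apart there for 29 of the 102, against 5.28% of all genes. The median difference of the 102 rises was 0.60 in Mex3a- cells, where they were chosen, and 0.24 in Mex3a+ cells. Of the 102 falls, 80 were below 0 in Mex3a+ cells, where 58.5% of all genes were above 0. In all 3 mice 33 of them were lower there, against 1428 of all 12595 genes. Groups lay apart for 5 of the 102, against 2.39% of all genes. The median difference of the 102 falls was -0.62 in Mex3a- cells and -0.095 in Mex3a+ cells. A gene chosen for a large value in 1 comparison tends to be smaller in another, so these medians do not test a difference.

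The calls in both comparisons were 6 genes, all rises: Lgr5, Vwa2, Scara3, Thbs2, Col9a3 and Sidt1. These are 6 of the 9 calls in Mex3a+ cells and 6 of the 204 in Mex3a- cells. Lgr5 differed by 2.01 in Mex3a- cells, Vwa2 by 2.16, Thbs2 by 1.23, Scara3 by 0.92, Col9a3 by 0.74 and Sidt1 by 0.40. Car1 had -0.66 (limma adjusted p = 0.182), Steap1 -0.17 (limma adjusted p = 0.506) and Pla2g2f 0.21 (limma adjusted p = 0.248) there.

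The test of the difference itself, the interaction of Lgr5 status with Mex3a status, called 0 genes (0%; limma, with 1078 at an unadjusted p under 0.05 and a median standard error of 0.144). For Lgr5 the difference in Mex3a+ cells was smaller by 0.92 (interaction -0.92, SE 0.21, limma adjusted p = 0.351), and for Vwa2 the interaction was -1.17 (SE 0.20, limma adjusted p = 0.131). For Car1, whose fall was larger in Mex3a+ cells, it was -1.31 (SE 0.32, limma adjusted p = 0.351), for Steap1 -0.51 (SE 0.14, limma adjusted p = 0.383) and for Pla2g2f 0.34 (SE 0.12, limma adjusted p = 0.439). Scara3 (-0.03), Col9a3 (-0.07) and Sidt1 (0.06) had nearly equal values in both compartments, and Mex3a had -0.21 (SE 0.19, limma adjusted p = 0.817). No gene was thus shown to respond to Lgr5 status in one Mex3a compartment and not in the other.

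The lists followed the same order of size in part. In Mex3a- cells the median was 0.24 for stem cell genes (0.13 in Mex3a+ cells), -0.52 for colonocyte genes (-0.24), 0.23 for matrix genes (0.084) and -0.099 for genes of G2 and M (-0.13). Interferon-induced genes had a median of -0.33 in Mex3a- cells against 0.035 in Mex3a+ cells, and goblet cell genes -0.23 against 0.11. The difference between compartments was not tested for lists.

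**Figure D5:**
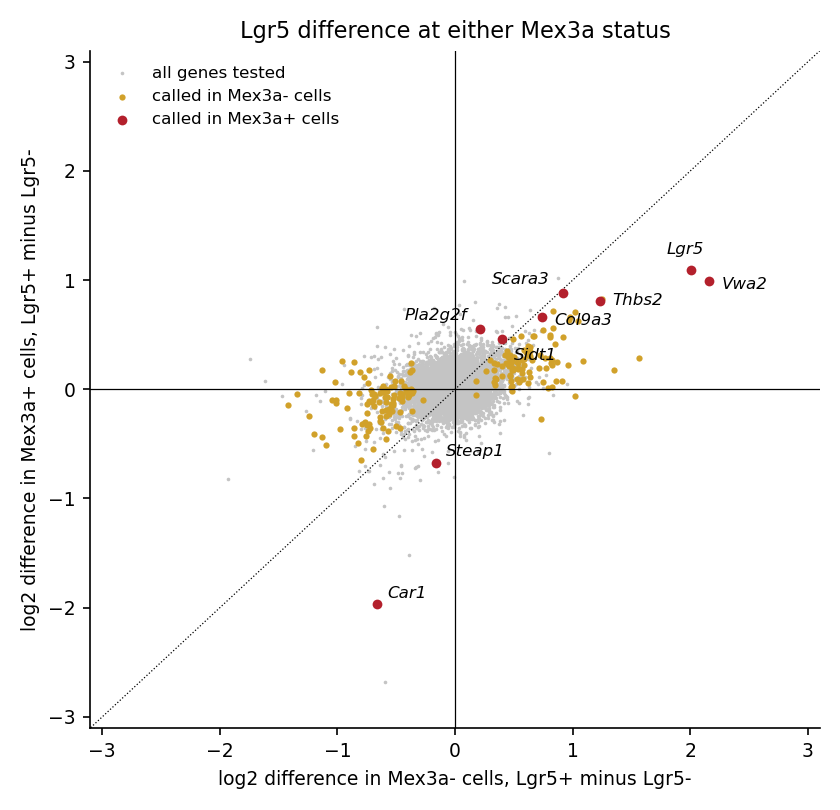
Log2 difference between Lgr5+ and Lgr5- cells in Mex3a+ cells (y axis) against that in Mex3a- cells (x axis) for the 12595 genes tested, with the 9 genes called in Mex3a+ cells in red, the others called in Mex3a- cells in yellow and a dotted line where both are equal. The yellow points spread along the x axis and stay closer to 0 on the y axis, and Car1 lies far below the line.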

How the data were processed

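The deposited values are log2 signals of an Affymetrix mouse array, made by the authors with RMA per the submitters' processing notes; its version is not given in the sources used here. Per the labels, total RNA was amplified as whole transcriptome cDNA before labelling. GEO's platform annotation gave 1 gene symbol to 28898 of 45141 probe sets, several to 551 and none to 15588; 104 were controls. The brightest probe set stood for each of the 17097 symbols. Genes were kept above the 40th percentile of all values (4.40) on at least 3 arrays. The model for each gene (limma 3.58.1, R 4.3.3) had 4 group means and the mouse as a block over all 12 arrays (6 residual degrees of freedom), an intensity trend and 2-sided tests. Every adjusted p is limma's with Benjamini-Hochberg adjustment, and SE its standard error. The number of arrays limits the precision, and array medians were 4.86 to 4.92.

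The pairing comes from the mouse number in the titles. After group means were removed, arrays of 1 mouse correlated at 0.349 to 0.694 across genes and arrays of different mice at -0.691 to 0.152. Removing the mean of 3 arrays itself pushes the values for different mice below 0, so they are no independent contrast. Named were called genes with 1 sign in 3 of 3 mice (up to 15 per direction, filled to 10 by smallest p), Lgr5, Mex3a and up to 4 genes of smallest p per list described. The 27 lists (635 of 842 genes tested, 766 on the array) came from general knowledge. The groups, members and lists were chosen with earlier results of these data known. The test was checked on simulated data. Alternatives were the model without the block, the mouse as a random effect, the 6 Mex3a+ arrays alone, other filters, scalings, probe set rules, variance settings and leaving out mice or arrays.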

Additional observations from a re-analysis of the deposited data

Results flagged for a closer look

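Probe sets that the annotation pairs with several gene symbols or with none were left out of the comparison of genes. Tested in the same way as a family of 8482 probe sets, 4 of them were called between Lgr5+ and Lgr5- cells of the Mex3a+ compartment (limma), 3 higher and 1 lower in Lgr5+ cells, each with the same sign in 3 of 3 mice. The smallest limma adjusted p among them was 0.0152, for a probe set with means of 6.96 in Lgr5+ and 5.90 in Lgr5- cells and a log2 difference of 1.05. A bright one, with means of 11.2 and 10.8, differed by 0.33. They are unnamed here, so no gene can be given for them.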

How the results depend on the processing

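The count of 9 genes for Lgr5 status in Mex3a+ cells depended on the model. Without the pairing (no mouse block) it was 0, and without the intensity trend 0. With the 6 Mex3a+ arrays alone it was 100, which included the 9, after a further quantile normalization 3, and with probe sets of a gene averaged 2. It was 6 with the mouse as a random effect, 9 with no filter, 11 with the filter at the 60th percentile, 9 with median centring and 12 with array weights. With every probe set tested on its own 9 probe sets passed, from 8 genes: both of Lgr5, and not that of Scara3. Leaving out a mouse or 1 of the 6 arrays gave 0 to 4. In Mex3a- cells the 204 became 4 without the pairing, 87 with the mouse as a random effect and 130 with averaged probe sets, and 43 to 216 when a mouse or an array was left out. The interaction had 0 calls, except 1 after mouse MKL367 was left out and 1 after the array of Mex3a+ Lgr5+ cells of mouse MKL347 was. Leaving out a mouse or an array also left fewer samples, and the causes of the changed counts were not tested. All 9 called genes kept their sign. Changes of sign occurred in genes that did not pass: Mex3a had -0.071 with averaged probe sets, and leaving out samples gave -0.028 to 0.25 (lowest without mouse MKL367). The same ranges were -0.082 (without mouse MKL358; -0.00021 when its Mex3a+ Lgr5+ array alone was left out) to 0.31 for Reg4, -0.58 to 0.15 for Sh2d6, -0.23 to 0.046 (without mouse MKL367; 0.024 when its Mex3a+ Lgr5- array alone was left out) for Des, and -0.21 to 0.084 for Loxl1 (0.073 without mouse MKL347). Without the block, 6 of 33 stem cell genes were higher and 3 of 34 colonocyte and 2 of 38 G2 and M genes lower at an unadjusted p under 0.05. Of 540 list medians over the alternatives, 54 had another sign than the main one.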

Other observations

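Some of the largest differences in Mex3a+ cells were not called, and these genes were chosen after their values were seen. Cxcl13, a chemokine that attracts B cells, was the only gene besides Lgr5 with a difference above 1 (1.02, SE 0.20, limma adjusted p = 0.165), with 1.82 in mouse MKL358 against 0.62 and 0.60 in mice MKL347 and MKL367. Besides Car1, 4 genes had differences below -1. The defensin gene Defa21 had -2.68 (SE 0.94, limma adjusted p = 0.480), of which mouse MKL367 gave -5.54 and mouse MKL358 -0.066. Reg3b, an antimicrobial lectin, had -1.52 (-3.05 in mouse MKL367), the neutrophil chemokine gene Cxcl5 -1.16, and the keratin gene Krt20 -1.07, from -3.00 in mouse MKL347 to 0.15 in mouse MKL358. None of these passed.

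For the interaction the smallest p-values belonged to Ggh, a lysosomal gamma-glutamyl hydrolase, Sycn and Ociad2, also chosen after the fact and not passing. Ggh had a difference of 0.066 in Mex3a+ cells and -1.02 in Mex3a- cells (interaction 1.08, SE 0.14, limma adjusted p = 0.088). Ociad2 had 0.50 and -0.37 (interaction 0.87, SE 0.13, limma adjusted p = 0.102), with opposite signs in the compartments.

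The differences of the mice resembled each other less within Mex3a+ than within Mex3a- cells. Across the 12595 genes, which are not independent replicates, the differences of any 2 mice correlated at 0.153 to 0.180 in Mex3a+ cells and at 0.276 to 0.335 in Mex3a- cells. Each Lgr5 difference within a mouse had a standard deviation across genes of 0.215 to 0.223 in Mex3a+ cells and 0.250 to 0.292 in Mex3a- cells.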
